A study of Danio rerio with 8 samples.

Results

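Chemokines are small secreted proteins that guide cells along gradients, and their receptors are G protein-coupled receptors on the cells that respond. Cxcr4 is the receptor for the ligand Cxcl12; the pair holds blood cells in marrow niches and steers migrating cells in the zebrafish embryo. Cxcr7, now called Ackr3, binds the same ligand and takes it up, whereas Cxcr1 and Cxcr2 respond to Cxcl8 and Cxcl18 ligands and draw neutrophils to wounds and infections in zebrafish larvae. Zebrafish carry pairs of several of these genes, such as *cxcr4a* with *cxcr4b* and *cxcl12a* with *cxcl12b*. In eosinophils, granulocytes that act against parasites and in allergy, *cxcr4b* is used in zebrafish as a marker of the mature stage.

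The genes described here are 10 listed chemokine and receptor genes: *cxcr4a*, *cxcr4b*, *cxcl12a*, *cxcl12b*, *ackr3b*, *cxcr1*, *cxcr2*, *cxcr3.2*, *cxcl18b* and *cxcl8a*. Of these, 9 appear among the 30838 genes of each expression table; *cxcr1* does not appear under that symbol and was not analysed here. They were chosen by name with their levels in these libraries known, and the measured genotype differences of both tables were used in the choice, above all the opposite differences of *cxcr4b* in the 2 mutants. Their genotype differences are therefore given as a description, with no test. The zebrafish were of the AB strain and carried *Tg(eslec:eGFP)*, a reporter in which the promoter of the lectin gene *eslec* drives green fluorescent protein. Larvae of 4 genotypes were used at 7 days post fertilization (dpf): *cebp1*+/+, *cebp1*-/-, *cebpb*+/+ and *cebpb*-/-. The mutated genes encode transcription factors of the C/EBP family that act in granulocyte development. Each genotype had 2 libraries, 8 in all, each from about 500 eGFP-positive cells of a separate pool of larvae, so replicates are pools and not single animals.

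Levels are TPM, a length-corrected share of the reads of a library that sums to 1e+06 over all genes. Each mutant has a table of its own with its own wild type, and levels were compared only within a table. In the tables *eslec* is named *si:dkeyp-75b4.10*, and it stood between 11658 and 36138 TPM in the 8 libraries. *Cebpb* messenger RNA was at 6360 and 5716 TPM in *cebpb*+/+ against 2928 and 1480 TPM in *cebpb*-/-. *Cebp1* was listed at 0 in all 8 libraries, so it cannot check the *cebp1* labels. An exact 0 can also be a failed estimate in a table without counts, so such a value is given only as listed at 0. Between 87.2% and 88.1% of genes were above 0 in the *cebp1* libraries and between 39.3% and 50.3% in the *cebpb* libraries. The *cebp1* table differed between genotypes in the level of the median gene, which was 6.95 and 5.43 TPM in *cebp1*+/+ against 2.19 and 2.697 TPM in *cebp1*-/-. Differences are therefore given on 2 scales: TPM as deposited, and scaled TPM, in which each library was divided by the median ratio of its genes to their geometric mean. On the log2 scale, the median of all tested genes was -0.90 (*cebp1*-/- minus *cebp1*+/+) and 0.46 (*cebpb*-/- minus *cebpb*+/+) in TPM as deposited, and -0.06 and -0.03 after scaling. Read depth cannot be recovered from TPM, so counting error is unknown.

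*Cxcr4b* was the highest of the listed genes in every library. In the *cebp1* table it stood at 194.7 and 114.8 TPM in *cebp1*+/+ against 702 and 512 TPM in *cebp1*-/-. Both mutant libraries lay above both wild-type libraries. The mean level was 3.93-fold higher in the mutant, and the difference was 3.06 (SE 0.33) in log2 scaled TPM and 1.997 in log2 TPM as deposited. In *cebpb* libraries it stood at 2713 and 2581 TPM in *cebpb*+/+ against 1112 and 833 TPM in *cebpb*-/-. Here both mutant libraries lay below both wild-type libraries. The mean level was 2.72-fold higher in the wild type, and the difference was -2.01 (SE 0.19) in log2 scaled TPM and -1.46 in log2 TPM as deposited. Ranked within each library, *cxcr4b* was the gene at place 290 and 470 from the top in *cebp1*+/+ and at place 141 and 157 in *cebp1*-/-. Its places in the *cebpb* table were 71 and 73 in *cebpb*+/+ and 151 and 192 in *cebpb*-/-. The ranks thus separated the genotypes in the same directions as the levels. In a bulk sample, fewer cells of a type and less RNA per cell cannot be told apart.

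**Figure D1:**
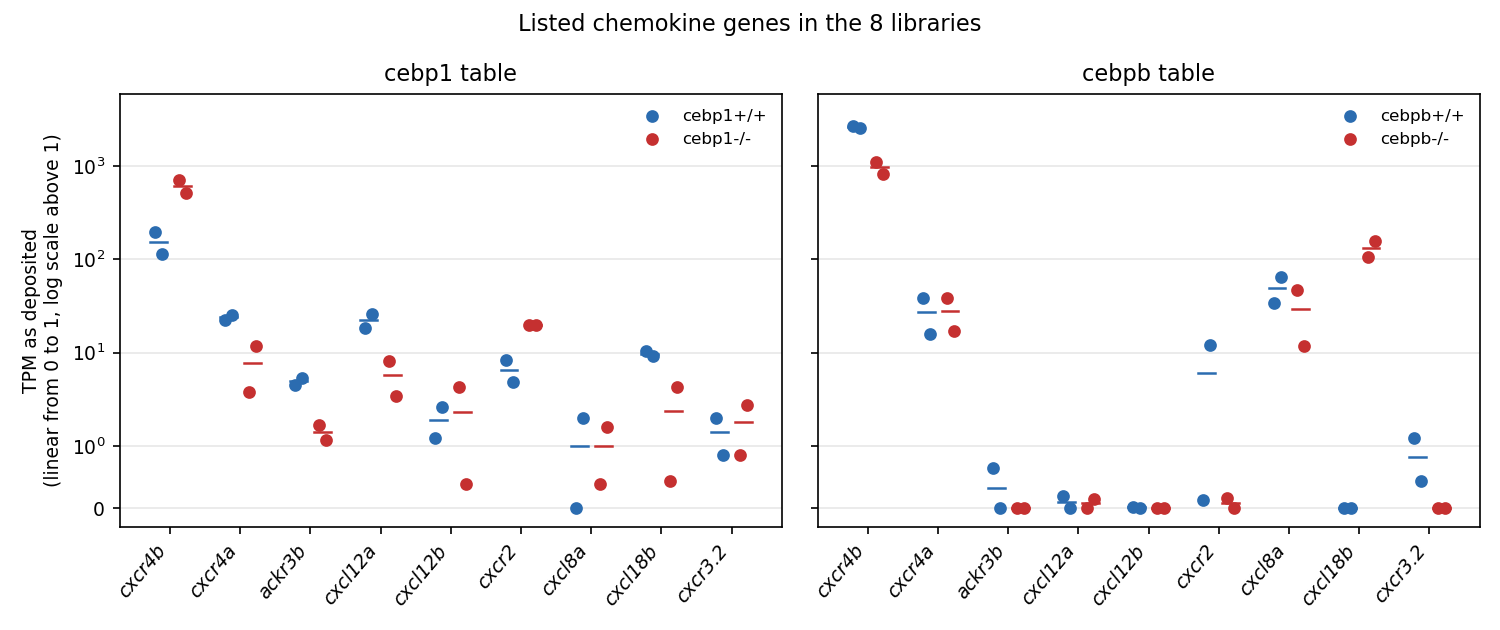
TPM as deposited (vertical axis, linear from 0 to 1 and logarithmic above) of the 9 listed genes in the 8 libraries, with wild type in blue, mutant in red and bars at the mean of 2 libraries. *Cxcr4b* is the highest gene in both panels, at 512 to 702 TPM in *cebp1*-/- above its wild type and at 833 to 1112 TPM in *cebpb*-/- below its wild type.

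*Cxcr4a*, the paralog of *cxcr4b*, did not share its pattern. It stood at 22.4 and 25.5 TPM in *cebp1*+/+ against 3.80 and 11.7 TPM in *cebp1*-/-, with both mutant libraries lower. That order held in TPM as deposited (difference -1.67, log2), but the genotypes overlapped after scaling (-0.70, SE 0.53). Among *cebpb* libraries, *cxcr4a* stood at 38.4 and 15.9 TPM in *cebpb*+/+ against 39.0 and 17.3 TPM in *cebpb*-/-. The genotypes overlapped there, and the spread between replicates was larger than the difference between means (-0.46, SE 0.71, in log2 scaled TPM, and 0.07 in log2 TPM as deposited). The ratio of *cxcr4b* to *cxcr4a*, which no scaling between libraries can alter, was 8.68 and 4.51 in *cebp1*+/+ and 185 and 43.9 in *cebp1*-/-. The *cebpb* libraries had 70.7 and 162 in *cebpb*+/+ and 28.5 and 48.2 in *cebpb*-/-. The ratios did not overlap between genotypes in either table.

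*Ackr3b*, which encodes the scavenging receptor for Cxcl12, was low. It stood at 4.51 and 5.33 TPM in *cebp1*+/+ against 1.68 and 1.17 TPM in *cebp1*-/-, the mutant libraries being lower on both scales (-0.52, SE 0.51, in log2 scaled TPM; -1.29 in log2 TPM as deposited). The scaled difference was about as large as its error. *Ackr3b* in the *cebpb* table was at 0.640 TPM in 1 wild-type library and listed at 0 in the other 3. The same was true of *cxcl12b*, at 0.0252 TPM in 1 wild-type library. Neither gene passed the minimum mean of 1 scaled TPM there.

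Both genes for the ligand of Cxcr4 stood far below *cxcr4b* in these sorted cells. *Cxcl12a* stood at 18.6 and 26.3 TPM in *cebp1*+/+ against 8.09 and 3.44 TPM in *cebp1*-/-. The mutant libraries were both lower in TPM as deposited (-1.87, log2), and the genotypes overlapped after scaling (-0.90, SE 0.55). Its level in the 4 *cebpb* libraries did not exceed 0.204 TPM, and it was listed at 0 in 1 library of each genotype. *Cxcl12b* stood at 1.22 and 2.62 TPM in *cebp1*+/+ against 4.25 and 0.397 TPM in *cebp1*-/-. The *cebp1*-/- libraries fell on either side of the wild type, so *cxcl12b* showed no order, and its mean difference changed sign with the scale (0.57, SE 0.80, in log2 scaled TPM and -0.07 as deposited). In the *cebp1* table, marker genes of endothelium, a tissue that makes or receives Cxcl12 signals, summed to 65.7 and 63.0 TPM in *cebp1*+/+ against 25.1 and 22.9 TPM in *cebp1*-/-. Markers of stroma and fibroblasts summed to 25.5 and 45.5 TPM and to 11.0 and 15.5 TPM. In TPM as deposited, 6 of 7 endothelial and 3 of 6 stromal markers were lower in both *cebp1*-/- libraries than in both wild-type libraries, as were 61.3% of all tested genes, and *col1a1a*, a collagen gene of stroma, was listed at 0 in every library. After scaling the endothelial sums were 40.9 and 48.2 against 38.8 and 31.0, and the stromal sums overlapped. In TPM as deposited these sums and *cxcl12a* were lower in the same libraries; their part in its difference was not tested.

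*Cxcr2* encodes the receptor for Cxcl8 and Cxcl18 ligands that brings neutrophils to inflamed tissue. It stood at 8.30 and 4.83 TPM in *cebp1*+/+ against 19.6 and 19.99 TPM in *cebp1*-/-. Both mutant libraries were higher and lay close together, and the difference was 2.47 (SE 0.41) in log2 scaled TPM and 1.499 in log2 TPM as deposited. In *cebp1*-/- it was the next highest of the listed genes after *cxcr4b*, clear of *cxcr4a*; in *cebp1*+/+ it overlapped with *ackr3b*. The *cebpb* table gave *cxcr2* at 11.96 TPM in 1 wild-type library, at 0.129 TPM in the other, and at 0.173 TPM and listed at 0 in *cebpb*-/-. A single library thus carries its level there, and the difference had an error of similar size (-1.97, SE 1.47, in log2 scaled TPM). After scaling both mutant libraries were lower, with the lower wild-type library close to them. Markers of neutrophils summed to 99.1 and 87.4 TPM in *cebp1*+/+ against 72.9 and 49.9 TPM in *cebp1*-/-, and 4 of 7 lay below the wild type and 1 above in TPM as deposited, where 61.3% of all tested genes lay below. After scaling 2 of the 6 tested markers lay above and 2 below (23.1% and 23.3% of all tested genes). The scaled sums were 61.7 and 66.8 in *cebp1*+/+ against 113 and 67.8 in *cebp1*-/-, with 1 mutant library barely above the wild type. *Ncf1*, which encodes a subunit of the phagocyte NADPH oxidase, was above the wild type on both scales, at 20.3 and 20.6 TPM against 54.7 and 36.4 TPM, without passing the test (log2 fold change 2.12, SE 0.40, limma adjusted p = 0.0569). *Cfl1l*, a cofilin-like gene, was called lower, at 32.1 and 31.1 TPM against 1.98 and 0.305 TPM (-3.25, SE 0.59, limma adjusted p = 0.0495). The part of these markers in the level of *cxcr2* was not tested. *Lyz*, the lysozyme gene that defines zebrafish neutrophils, did not exceed 1.47 TPM in the *cebp1* libraries. It missed the minimum mean and was not tested, and it lay below the wild type in both *cebp1*-/- libraries on both scales. In the RefSeq gene table (assembly GRCz12tu) *cxcr2* lies next to *cxcr1*, which in turn lies next to *arpc2*, an actin regulator. *Arpc2* also lay above the wild type in both *cebp1*-/- libraries (given with its test among the migration genes). Of all tested genes 4.94% did so in TPM as deposited and 23.1% after scaling. Any part of gene position in these levels was not tested.

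*Cxcl18b*, an inflammatory chemokine of fish that acts on neutrophils through Cxcr2, differed between genotypes in opposite directions in the 2 tables. It stood at 10.3 and 9.14 TPM in *cebp1*+/+ against 0.444 and 4.32 TPM in *cebp1*-/-. Both mutant libraries were lower on both scales (-1.18, SE 0.70, in log2 scaled TPM, and -1.95 in log2 TPM as deposited). Of all tested genes 61.3% lay below as deposited and 23.3% after scaling. The scaled difference rested largely on 1 library: it was -0.15 without *cebp1*-/- replicate 1 and -2.23 without replicate 2. In *cebpb* libraries it was listed at 0 in both *cebpb*+/+ libraries and stood at 105 and 159 TPM in *cebpb*-/-. It was then second among the listed genes after *cxcr4b*, and no fold change can be given against a group at 0. In TPM as deposited, keratinocyte, melanophore and neural marker sums were high in the same genotypes, and muscle sums only in the *cebpb* table. Muscle markers overlapped in the *cebp1* table, at 43.2 and 114 TPM in *cebp1*+/+ against 629 and 13.9 TPM in *cebp1*-/-. Neural markers summed to 179 and 175 TPM in *cebp1*+/+ against 112 and 93.1 TPM in *cebp1*-/-, and overlapped after scaling. They summed to 5.86 and 1.69 TPM in *cebpb*+/+ against 10.5 and 50.9 TPM in *cebpb*-/-. Keratinocyte markers summed to 206 and 1100 TPM in *cebp1*+/+ against 15.2 and 18.7 TPM in *cebp1*-/-, and to 5.13 and 71.1 TPM in *cebpb*+/+ against 354 and 1484 TPM in *cebpb*-/-. Markers of melanophores, the black pigment cells, summed to 4264 and 6015 TPM in *cebp1*+/+ against 1984 and 2940 TPM in *cebp1*-/-. They summed to 5084 and 5965 TPM in *cebpb*+/+ against 28825 and 17964 TPM in *cebpb*-/-. All 6 melanophore markers lay below the wild type in both *cebp1*-/- libraries and above it in both *cebpb*-/- libraries, in TPM as deposited, as did 61.3% and 31.2% of all tested genes. After scaling 2 of the 6 lay below in *cebp1*-/-, where the melanophore sums overlapped, and 6 of 6 above in *cebpb*-/- (23.3% and 21% of all tested genes). Of the 7 keratinocyte markers, 6 lay below in *cebp1*-/- and 5 above in *cebpb*-/- on both scales. The part of these marker lists in the level of *cxcl18b* was not tested. In TPM as deposited, the keratinocyte and melanophore sums were low in the genotype where *cxcr4b* was high.

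*Cxcl8a*, the zebrafish counterpart of interleukin-8, had the lowest mean of the 9 listed genes in both *cebp1* genotypes. It was listed at 0 and stood at 1.99 TPM in *cebp1*+/+, against 0.387 and 1.61 TPM in *cebp1*-/-. The genotypes overlapped, with a difference of 0.51 (SE 0.69) in log2 scaled TPM. It stood at 34.4 and 64.4 TPM in *cebpb*+/+ against 47.3 and 11.7 TPM in *cebpb*-/-. These libraries overlapped in TPM as deposited (-0.96, log2), and after scaling both mutant libraries were lower (-1.49, SE 0.74). *Cxcr3.2* encodes a receptor for interferon-induced chemokines that is found on zebrafish macrophages. It stood at 1.98 and 0.853 TPM in *cebp1*+/+, 0.863 and 2.77 TPM in *cebp1*-/-, 1.23 and 0.431 TPM in *cebpb*+/+, and was listed at 0 in both *cebpb*-/- libraries. It was low in all 4 genotypes. *Mpeg1.1*, a defining macrophage gene, was listed at 0 in every library, as were 3 of the 7 macrophage markers in all. The others were not. The 7 summed to 69.2 and 40.0 TPM in *cebp1*+/+ against 14.3 and 14.4 TPM in *cebp1*-/-. In the *cebpb* table they summed to 174 and 121 TPM in *cebpb*+/+ against 228 and 7.31 TPM in *cebpb*-/-. The part of these markers in the level of *cxcr3.2* was not tested.

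The order of levels put *cxcr4b* first in every genotype, with its lower library clear of the higher library of the next gene. In *cebp1*+/+ the next were *cxcr4a* and *cxcl12a*, whose ranges overlapped. *Cxcl18b* followed, clear of *cxcr2* and *ackr3b*, which overlapped with each other. In *cebp1*-/- *cxcr2* came second, and the other 7 genes below it each overlapped with the next. Among them *cxcr4a* and *cxcl12a* were both clear of *cxcr3.2*, *ackr3b* and *cxcl8a*. In *cebpb*+/+ *cxcl8a* and *cxcr4a* came next and overlapped. In *cebpb*-/- *cxcl18b* came second and clear, followed by *cxcl8a* and *cxcr4a*, which overlapped. The remaining genes of both *cebpb* genotypes overlapped with their neighbors or were listed at 0.

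**Figure D2:**
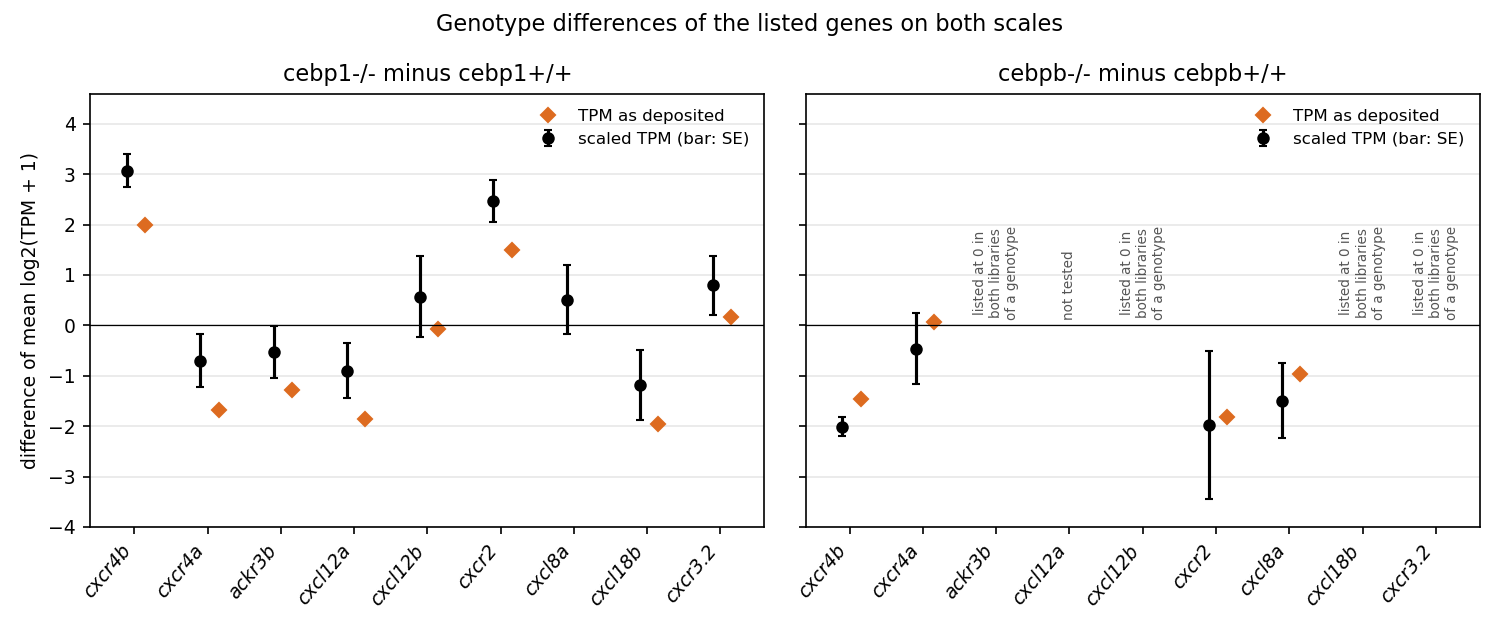
Differences in mean log2(TPM + 1) of the listed genes, mutant minus wild type, in each table, with scaled TPM as black points (bars, standard error) and TPM as deposited as orange diamonds. *Cxcr4b* lies at 3.06 and 1.997 in the *cebp1* table and at -2.01 and -1.46 in the *cebpb* table; genes that were not tested or are at 0 in both libraries of a genotype have no point, and *cxcl8a* in the *cebp1* table has none for TPM as deposited, where it missed the minimum mean.

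Counted over the list, all 9 genes passed the minimum mean of 1 scaled TPM in the *cebp1* table and 5 did so in the *cebpb* table. By limma with Benjamini-Hochberg adjustment over all genes of a table, the tally of the 9 was 2 called higher in *cebp1*-/- and 0 lower. Across the 25251 genes tested there, 1.26% were called higher and 0.115% lower. In TPM as deposited none of the 9 was called, with 0.0627% of all tested genes called higher and 0.114% lower. The *cebpb* comparison called 0 genes in either direction among the 11627 tested by limma, although before adjustment p was under 0.05 for 709 higher (6.1%) and 931 lower genes (8.01%). The same unadjusted threshold took in 9.67% higher and 4.91% lower of the genes tested in the *cebp1* table. Nothing is read from the members' counts, since these contrasts chose them. In TPM as deposited, 2 of the 9 genes lay above the wild type in both *cebp1*-/- libraries (4.94% of all tested genes did) and 4 lay below (61.3%). For *cebpb*-/- 1 lay above (31.2%) and 2 below (14.7%), but *cxcr3.2*, 1 of the 2 below, was too low to be tested. The percentages cover tested genes only. After scaling, 3 of 9 lay above (23.1%) and 2 below (23.3%) in *cebp1*-/-, and 1 of the 5 tested lay above (21%) and 3 below (23.6%) in *cebpb*-/-.

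To compare *cxcr4b* with the bulk of eosinophil RNA, it was set against other genes of the same library. Relative to *eslec*, which drives the sorting reporter, the log2 ratio of *cxcr4b* was -5.93 and -6.99 in *cebp1*+/+ and -4.88 and -5.55 in *cebp1*-/-, so it was higher in both mutant libraries (difference 1.24). For the *cebpb* table the same ratio was -3.74 and -3.63 in *cebpb*+/+ and -3.39 and -4.41 in *cebpb*-/-. There the genotypes overlapped (difference -0.22): *eslec* itself stood at 36138 and 31898 TPM in *cebpb*+/+ against 11658 and 17653 TPM in *cebpb*-/-. Relative to *fcer1gl*, an Fc receptor chain gene that marks the same mature stage, the log2 ratio differed by 1.51 in *cebp1*-/- and by -1.37 in *cebpb*-/-, without overlap in either table. Relative to *gata2a*, a transcription factor gene of the lineage, the differences were 1.18 and -1.51 on the log2 scale.

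Against genes with general roles the direction was the same. The log2 ratio to *actb2*, a cytoplasmic actin, differed by 0.71 for *cebp1*-/- and by -1.46 for *cebpb*-/-. For *eef1a1l1*, a translation elongation factor, the differences were 1.16 and -0.97. For *tpt1*, a translationally controlled tumor protein gene, they were 1.75 and -1.34. The sum of the ribosomal protein genes gave 1.93 and -0.94. None of these ratios overlapped between genotypes. The 6 single reference genes differed between genotypes themselves, so each ratio holds both differences. All 6 lay above the wild type in both *cebp1*-/- libraries on both scales (4.94% of all tested genes as deposited, 23.1% scaled). In *cebpb*-/- 2 of them lay below in TPM as deposited and 6 after scaling (14.7% and 23.6%). Markers of eosinophils summed to 15228 and 17794 TPM in *cebp1*+/+ against 27130 and 29814 TPM in *cebp1*-/-, and to 47368 and 42439 TPM in *cebpb*+/+ against 19522 and 27023 TPM in *cebpb*-/-. These sums, most of which was *eslec*, were higher and lower in the same libraries as *cxcr4b*. Of the 8 genes of the list, which holds *ccr9a* but not *cxcr4b*, 6 lay above the wild type in both *cebp1*-/- libraries in TPM as deposited and 8 after scaling. Of all tested genes 4.94% and 23.1% did so. In *cebpb*-/- 4 lay below and 1 above in TPM as deposited (14.7% and 31.2% of all tested genes). After scaling 7 lay below and 1 above there (23.6% and 21%). The gene that was higher there was *il1rl1*, which encodes the receptor for interleukin-33, at 45.3 and 60.7 TPM in *cebpb*+/+ against 377 and 384 TPM in *cebpb*-/- (log2 fold change 2.29, SE 0.32, limma adjusted p = 0.152). *Gata2a*, *fcer1gl* and *ccr9a* overlapped between these genotypes in TPM as deposited.

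**Figure D3:**
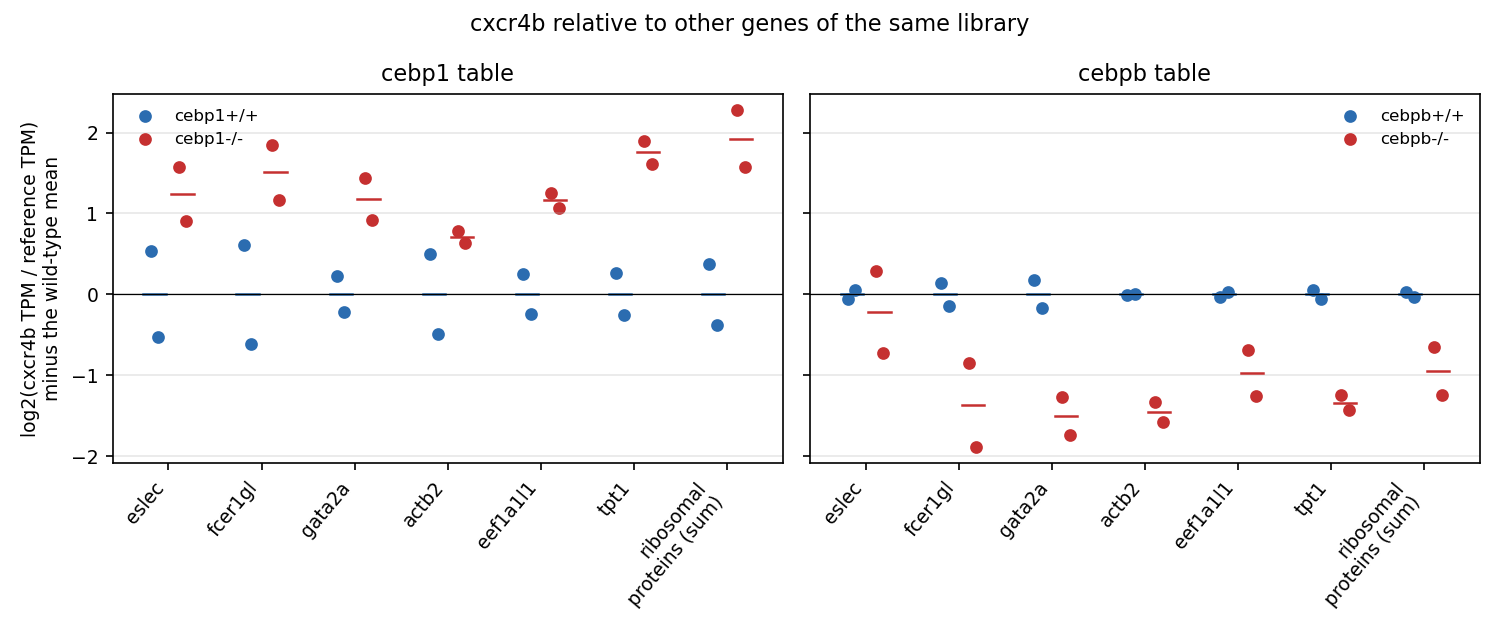
Log2 ratio of *cxcr4b* to a reference gene of the same library, minus the mean of the 2 wild-type libraries of that table, for 6 single genes and the sum of ribosomal protein genes (wild type blue, mutant red, bars at the mean). In *cebp1*-/- all 7 ratios lie above the wild type, by 0.71 to 1.93; in *cebpb*-/- 6 lie below it and the ratio to *eslec* overlaps.

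The level of *cxcr4b* was also set against the sum of all chemokine receptors. The tables hold 26 chemokine receptor genes, 5 of them from the list, and together they reached 430 and 360 TPM in *cebp1*+/+ against 882 and 731 TPM in *cebp1*-/-. The share of *cxcr4b* in that sum was 45.3% and 31.9% in *cebp1*+/+ and 79.7% and 70.1% in *cebp1*-/-. Over the *cebpb* table the sum was 4023 and 3969 TPM in *cebpb*+/+ against 2999 and 1866 TPM in *cebpb*-/-, and *cxcr4b* made up 67.4% and 65.0% against 37.1% and 44.6%. The share did not overlap between genotypes in either table. It is built from the *cxcr4b* levels that were used to choose the genes, so it is no further result. The other receptor of high level was *ccr9a*, the counterpart of a receptor for a thymic and gut chemokine. Its share was above that of *cxcr4b* in *cebp1*+/+ replicate 2 (32.5%) and in *cebpb*-/- replicate 1 (46.8%). *Ccr9a* stood at 98.2 and 117 TPM in *cebp1*+/+ against 98.1 and 116 TPM in *cebp1*-/-, with full overlap in TPM as deposited. After scaling both mutant libraries were above the wild type without passing the test (log2 fold change 1.05, SE 0.32, limma adjusted p = 0.187). *Ccr9a* was at 1245 and 1300 TPM in *cebpb*+/+ against 1402 and 479 TPM in *cebpb*-/-, 1 mutant library on each side of the wild type in TPM as deposited. After scaling both lay below (-1.18, SE 0.46, limma adjusted p = 0.342).

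**Figure D4:**
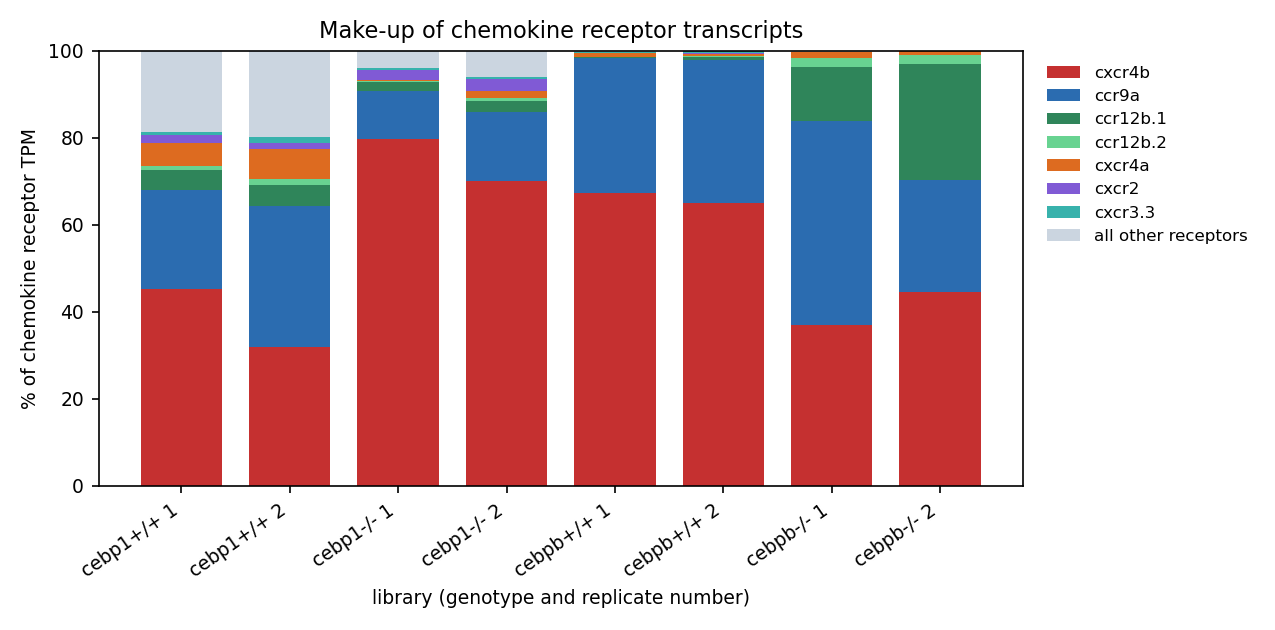
Percentage of all chemokine receptor TPM taken by each receptor gene in the 8 libraries (26 genes, of which 19 are combined as all other receptors). *Cxcr4b* takes 70.1% to 79.7% in *cebp1*-/- against 31.9% to 45.3% in its wild type, and 37.1% to 44.6% in *cebpb*-/- against 65.0% to 67.4% in its wild type.

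*Ccr12b.1*, which belongs to a group of fish CC receptors, was level in TPM as deposited in the *cebp1* table, at 19.2 and 17.3 TPM in *cebp1*+/+ against 17.99 and 18.2 TPM in *cebp1*-/- (-0.01, log2). After scaling both mutant libraries were above the wild type (1.001, SE 0.38, limma adjusted p = 0.274). Among *cebpb* libraries it was at 7.97 and 34.0 TPM in *cebpb*+/+ against 375 and 498 TPM in *cebpb*-/-. Both mutant libraries were far above the wild type, with a log2 fold change of 4.08 (SE 0.69), but the gene did not pass the test (limma adjusted p = 0.157). It made up 12.5% and 26.7% of receptor TPM in *cebpb*-/-. The related *ccr12b.2* was listed at 0 and stood at 8.30 TPM in *cebpb*+/+, against 59.7 and 36.4 TPM in *cebpb*-/-. Its log2 fold change was 3.60 (SE 1.24; limma adjusted p = 0.307). *Cxcr3.3*, a decoy-type relative of *cxcr3.2* in zebrafish, went the other way, at 11.1 and 15.1 TPM in *cebpb*+/+ against 2.90 and 2.45 TPM in *cebpb*-/- (-2.38, SE 0.78, limma adjusted p = 0.292). The other receptors of highest level in the *cebp1* table were *ccr6a*, at 7.43 and 5.24 TPM in *cebp1*+/+ against 11.0 and 14.2 TPM in *cebp1*-/-, and *ccr7*, at 18.2 and 4.35 TPM and at 2.54 and 6.47 TPM. *Ccr6a* was higher in both mutant libraries without passing the test (log2 fold change 1.85, limma adjusted p = 0.0878), and *ccr7* overlapped.

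Over the 21 receptor genes outside the list, 16 could be tested for *cebp1*-/- and 6 for *cebpb*-/-, and limma called 0 in both. Before adjustment, p was under 0.05 for 4 genes that were higher and 3 that were lower in *cebp1*-/-, and for 2 and 2 in *cebpb*-/-. Of all genes tested this took in 9.67% higher and 4.91% lower in *cebp1*-/-, and 6.1% and 8.01% in *cebpb*-/-. The median log2 fold change was 0.06 and -0.31 in scaled TPM, beside -0.06 and -0.03 for all genes tested, and -0.67 and 0.08 in TPM as deposited, beside -0.90 and 0.46. Leaving out genes at 0 in both libraries of a genotype, it was 0.20 over 15 genes and 0.57 over 5, so the sign in the *cebpb* table rests on 1 gene. Of the 21 genes, 2 were listed at 0 in all 4 *cebp1* libraries and 9 in all 4 *cebpb* libraries.

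Of the 48 chemokine ligand genes outside the list, 38 could be tested for *cebp1*-/- and 10 for *cebpb*-/-, and limma again called 0 in both. Before adjustment, p was under 0.05 for 1 gene that was higher and 5 that were lower in *cebp1*-/-, and for 0 and 1 in *cebpb*-/-. Of all genes tested this threshold took in 9.67% higher and 4.91% lower in *cebp1*-/-, and 6.1% and 8.01% in *cebpb*-/-. The median log2 fold change was -0.28 for *cebp1*-/- and -0.59 for *cebpb*-/- in scaled TPM, beside -0.06 and -0.03 for all genes tested. In TPM as deposited it was -1.04 and -0.44, beside -0.90 and 0.46. Without genes at 0 in both libraries of a genotype the scaled median was -0.19 over 37 genes and 0.49 over 6. Together with the listed ligands, the 52 ligand genes summed to 330 and 266 TPM in *cebp1*+/+ against 106 and 124 TPM in *cebp1*-/-. That is in TPM as deposited, where 61.3% of all tested genes lay below the wild type. After scaling, the 48 genes outside the list summed to 187 and 173 in *cebp1*+/+ against 144 and 155 in *cebp1*-/-. The *cebpb* sums of the 52 genes overlapped, at 233 and 566 TPM in *cebpb*+/+ against 430 and 184 TPM in *cebpb*-/-. Among the 48 ligands outside the list, the clearest split there was that of *cxcl19*. It stood at 39.0 and 55.7 TPM in *cebpb*+/+ and was listed at 0 in both *cebpb*-/- libraries. *Cxcl19* was also lower in *cebp1*-/- (1.32 and 3.05 TPM) than in *cebp1*+/+ (18.9 and 10.2 TPM), with limma adjusted p of 0.152 and 0.25 in the *cebpb* and *cebp1* tables. *Ccl35.1* and *ccl34a.4*, the highest of these 48 ligands in the *cebpb* table, each rested on single libraries in *cebpb*-/-. *Ccl35.1* stood at 75.1 and 343 TPM in the wild type and at 165 and 0.339 TPM in the mutant. *Ccl34a.4* stood at 67.5 and 87.0 TPM in the wild type, and at 68.5 TPM and listed at 0 in the mutant.

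Chemokine receptors signal through G proteins, and arrestins switch them off and carry them into the cell. The list holds 34 measured genes for G protein subunits, regulators of G protein signaling, receptor kinases and arrestins. In *cebp1*-/-, limma p before adjustment was under 0.05 for 8 higher and 3 lower genes (9.67% and 4.91% of all genes tested). After adjustment 2 were called higher and 0 lower, beside 1.26% and 0.115% of all genes tested. *Arrb2b*, a beta-arrestin 2 gene, stood at 101 and 111 TPM in *cebp1*+/+ against 211 and 171 TPM in *cebp1*-/-. The log2 fold change was 1.90 (SE 0.33, limma adjusted p = 0.0434). *Gnai1*, the alpha subunit of an inhibitory G protein, stood at 39.4 and 25.7 TPM in *cebp1*+/+ against 76.4 and 60.6 TPM in *cebp1*-/-. The log2 fold change was 2.12 (SE 0.36, limma adjusted p = 0.0431). Both genes separated the genotypes on both scales. The beta subunit genes *gnb1a* (107.8 and 127 TPM in *cebp1*+/+, 106 and 123 TPM in *cebp1*-/-) and *gnb1b* (122 and 145 TPM in *cebp1*+/+, 107 and 81.5 TPM in *cebp1*-/-) did not pass. Limma called 0 of the 26 genes of this list tested in the *cebpb* experiment, although before adjustment p was under 0.05 for 4 higher and 2 lower genes (6.1% and 8.01% of all genes tested). The highest was *rgs13*, which encodes a regulator that limits chemokine receptor signaling, at 1237 and 1063 TPM in *cebpb*+/+ against 656 and 54.5 TPM in *cebpb*-/- (log2 fold change -3.14, SE 1.05, limma adjusted p = 0.297). *Gnai1* went the other way, at 109 and 146 TPM against 237 and 271 TPM (0.45, SE 0.32, limma adjusted p = 0.599). It was thus higher in both mutants than in their wild types, on both scales. *Gnb1a* (215 and 201 TPM, then 392 and 364 TPM) and *gnb1b* (110 and 186 TPM, then 514 and 381 TPM) were also higher in *cebpb*-/- on both scales. *Arrb2b* overlapped in TPM as deposited and was lower after scaling. The list's median log2 fold change was 0.50 for *cebp1*-/- and 0.38 for *cebpb*-/-, beside -0.06 and -0.03 for all genes tested. In TPM as deposited it was -0.51 and 0.93, beside -0.90 and 0.46.

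Migrating leukocytes push their front with actin branched by the Arp2/3 complex under Rac and WASP. Of 42 measured genes for such effectors, 39 were tested in *cebp1*-/-. Before adjustment, limma p was under 0.05 for 19 higher genes and 1 lower gene (9.67% and 4.91% of all genes tested). After adjustment 5 were called higher and 0 lower, beside 1.26% and 0.115% of all genes tested. They were the Arp2/3 subunits *arpc1b* (242 and 197 TPM in *cebp1*+/+, 521 and 461 TPM in *cebp1*-/-; log2 difference 2.23, SE 0.27, limma adjusted p = 0.0255) and *arpc2* (153 and 179 TPM, then 407 and 328 TPM; 2.20, SE 0.32, limma adjusted p = 0.0321), with *wasb*, *rac2* and *rhogb*. *Wasb*, which encodes the WASP protein that activates the complex, stood at 214 and 218 TPM in *cebp1*+/+ against 378 and 323 TPM in *cebp1*-/- (1.76, SE 0.29, limma adjusted p = 0.0427). *Rac2*, a blood cell Rac, stood at 131 and 90.2 TPM against 194 and 182 TPM (1.85, SE 0.30, limma adjusted p = 0.0394). *Rhogb*, a related GTPase, stood at 94.5 and 68.6 TPM against 176 and 154 TPM (2.08, SE 0.31, limma adjusted p = 0.0324). All 5 lay above the wild type in both mutant libraries on both scales. *Cfl1*, which encodes the actin-severing protein cofilin, did not pass, at 315 and 410 TPM in *cebp1*+/+ against 143 and 136 TPM in *cebp1*-/-, lower in TPM as deposited and overlapping after scaling. Limma called 0 of 35 in *cebpb*-/-, although before adjustment p was under 0.05 for 2 higher and 7 lower genes (6.1% and 8.01% of all genes tested). There *arpc1b* stood at 1028 and 1223 TPM in *cebpb*+/+ against 746 and 665 TPM in *cebpb*-/- (log2 fold change -1.22, SE 0.20, limma adjusted p = 0.152). *Rac2* stood at 448 and 386 TPM against 284 and 306 TPM in the same order (-1.04, SE 0.27, limma adjusted p = 0.223). *Cfl1*, the highest of the list there, stood at 4261 and 4233 TPM against 4388 and 5401 TPM. Its mutant libraries were above the wild type in TPM as deposited and below it after scaling (-0.35, SE 0.20, limma adjusted p = 0.497). The list's median log2 fold change was 0.82 for *cebp1*-/- and -0.18 for *cebpb*-/- (-0.06 and -0.03 for all genes tested), and in TPM as deposited -0.19 and 0.25, beside -0.90 and 0.46 for all genes tested.

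These 7 calls in *cebp1*-/- depended on the scaling and on all 4 libraries. None of the 7 was called in TPM as deposited, where their log2 fold changes were between 0.69 and 1.16. None of the genes in these 4 lists was called when any 1 of the 4 libraries, *cebp1*+/+ replicate 1 or 2 or *cebp1*-/- replicate 1 or 2, was left out. Scaled TPM called 317 genes higher and 29 lower in *cebp1*-/- over the whole table, against 16 and 29 in TPM as deposited. Of the 8 eosinophil markers 5 were called higher in scaled TPM and 0 as deposited, beside 1.26% and 0.0627% of all genes tested. The part of these markers in the 7 calls was not tested.

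**Figure D5:**
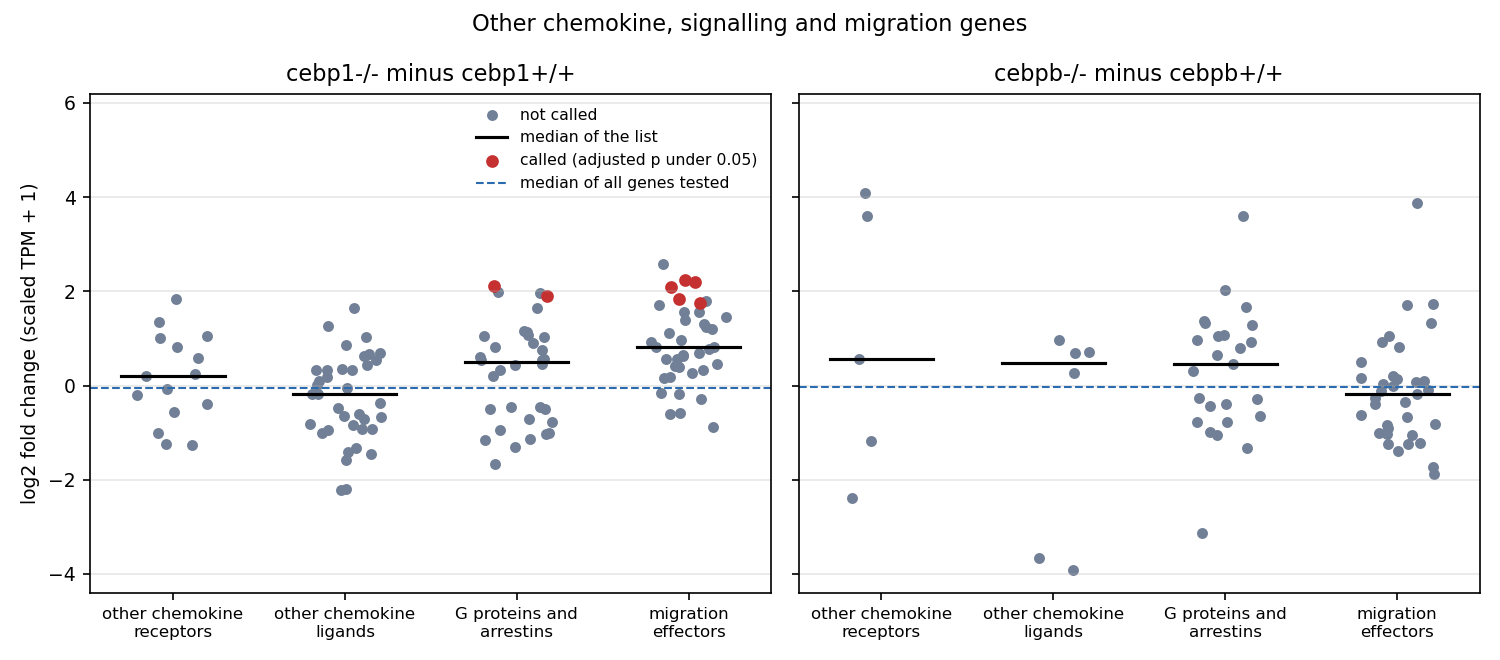
Log2 fold changes in scaled TPM (mutant minus wild type) of the tested genes of 4 lists, leaving out genes at 0 in both libraries of a genotype, with the list median (black), the median of all genes tested (dashed) and called genes in red. In *cebp1*-/- 2 genes of G protein and arrestin signaling and 5 migration effectors are called; in *cebpb*-/- none is.

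The genes whose pattern over the 8 libraries was most like that of *cxcr4b* were found by the root mean square difference of log2 profiles, each centered on its table, among 2339 genes of at least 20 scaled TPM in both tables. The closest 6 were *LOC553450* (0.25), *fli1b* (0.27), *si:dkey-262k9.4* (0.29), *LOC100330563* (0.31), *mapk11* (0.32) and *clca5.2* (0.32). *Fli1b* encodes an Ets transcription factor of blood and endothelium, *mapk11* a p38 kinase, and *clca5.2* a member of the family of calcium-activated chloride channel regulators. *Fli1b* stood at 49.4 and 31.8 TPM in *cebp1*+/+, 118 and 94.2 TPM in *cebp1*-/-, 73.3 and 80.6 TPM in *cebpb*+/+, but 36.6 and 32.6 TPM in *cebpb*-/-. *Clca5.2* stood at 55.1 and 55.6 TPM, 151 and 136 TPM, 231 and 231 TPM, and 83.5 and 83.5 TPM in the same order. Both were higher in *cebp1*-/- and lower in *cebpb*-/- than in their wild types, without overlap. The log2 differences of the 6 genes in scaled TPM were between 2.42 and 2.77 in the *cebp1* table and between -2.01 and -1.51 in the *cebpb* table. *Mapk11* stood at 28.2 and 19.3 TPM, 74.0 and 68.3 TPM, 56.5 and 51.9 TPM, and 24.1 and 30.6 TPM over the 4 genotypes in that order. These genes were selected for this likeness, so their values carry no test.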

How the data were processed

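Sorted eGFP-positive cells were profiled by a modified Smart-seq2 protocol. The authors aligned reads to GRCz11 with STAR, counted them with featureCounts and deposited TPM; the annotation and gene lengths behind these are not given in the sources used here. The authors' own test, DESeq2, needs read counts and could not be run on TPM. All 8 columns were used. Within a table, TPM were divided by median-of-ratios factors (0.646 to 1.61), and genes averaging 1 scaled TPM or more were tested by limma (version 3.58.1, R 4.3.3) on log2(TPM + 1) with a mean-variance trend, two-sided, adjusted over all genes tested. Fold changes on that scale understate low genes. With 2 against 2 libraries, p-values measure only the spread between pools, and a permutation cannot go below 0.33. The listed genes and all other gene lists were chosen with earlier results of these data known. Genes named are the listed 10, the called genes, the 6 most like *cxcr4b*, reference and marker genes, and genes of high level in each list. The last were taken from the 4 highest of a table, but not all of those 4 were described. Left out were, among others, *ccl27b* and *rgs14a* in the *cebp1* table and *arpc3* in the *cebpb* table. *Cxcl19* in the *cebp1* table was added after its values were seen. The alternatives were TPM as deposited, 2 other scalings, pseudocounts of 0.1 and 5, no filter, a minimum of 5, no trend, a replicate block and leaving out each library. All 10 listed genes matched RefSeq symbols. Figures were drawn with matplotlib 3.10.9.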

Additional observations from a re-analysis of the deposited data

Results flagged for a closer look

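*Cxcr4b* and *cxcl18b* were the listed genes that separated the genotypes in opposite directions in the 2 tables, on both scales. Separated means that both mutant libraries lay on the same side of both wild-type libraries. The measured differences were used to choose the genes, above all those of *cxcr4b*, so this pattern partly returns that choice. After scaling, 23.1% of all tested genes lay above and 23.3% below in *cebp1*-/-, and 21% and 23.6% in *cebpb*-/-. The share separated in opposite directions was not counted. The difference between the tables was not tested. *Cxcr4b* differed by 3.06 in log2 scaled TPM in *cebp1*-/- and by -2.01 in *cebpb*-/-. *Cxcl18b* differed by -1.18 in log2 scaled TPM in *cebp1*-/-, but by only -0.15 without *cebp1*-/- replicate 1. In *cebpb*-/- it had a mean of 131.8 TPM where the wild type was listed at 0.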

How the results depend on the processing

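The difference of *cxcr4b* kept its sign under every alternative run. In the *cebp1* table (3.06, log2) it was 1.997 in TPM as deposited, 1.97 with quantile normalization, 1.92 with scaling on genes of at least 50 TPM, and 2.77 to 3.42 leaving out 1 library. In the *cebpb* table (-2.01) it was -1.46, -1.39, -1.77, and -2.14 to -1.86. Among 132 alternatives for the other listed genes, 18 moved the value by more than the replicate spread and 7 gave the other sign. For *cxcr4b* and the others alike, the filter, minimum, trend and block alternatives cannot change a difference of group means. Their unchanged values were fixed by the design. Alternatives in which a gene missed the minimum mean were not counted. Among these was *cxcr2* in the *cebpb* table without the *cebpb*+/+ library at 11.96 TPM.

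The number of genes called higher in *cebp1*-/- (317) was 16 in TPM as deposited, 680 with a minimum of 5, 182 with a pseudocount of 0.1, 11 with scaling on genes of at least 50 TPM, and 0 with no filter, with no trend, with quantile normalization or leaving out any library (0 to 0). Those called lower (29) numbered 45 with a minimum of 5, 18 with a pseudocount of 0.1, and 0 in the same 4 cases. In the *cebpb* table, with 0 called, there were 3 higher and 6 lower with a minimum of 5, 4 and 6 with a pseudocount of 5, 6 and 7 with quantile normalization, and 0 to 0 leaving out a library. The 7 calls among other chemokine and signaling genes became 0 as deposited, 15 with a minimum of 5, 4 with a pseudocount of 0.1, and 0 with no filter, no trend, quantile normalization, scaling on genes of at least 50 TPM or any library left out. The causes were not tested, and where a library is left out the lone sample of its genotype is assumed to vary like the other pair.

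Replicates with the same number came from different pools. Their deviations were not correlated over genes (r = 0.0082 in the *cebp1* table, -0.018 in the *cebpb* table), and the numbers were not used to pair the samples. Whether libraries of the same number shared a preparation was not tested. With the replicate number as a block, 307 genes were called higher and 43 lower in *cebp1*-/-. In *cebpb*-/- 11 were called higher and 16 lower, 1 of them among the other chemokine and signaling genes. The block cannot alter the difference of *cxcr4b* (3.06 and -2.01), because each number occurs once in each genotype. TPM keep no depth, which limits what can be said of genes near 0.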
